A study of Mus musculus with 15 samples.

Results

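A set of 10 genes of tendon and of the small proteoglycan matrix was followed in mouse gastrocnemius, the large calf muscle, of animals with and without Cpt1b in skeletal muscle. Members were taken by gene symbol from the raw count table: Tnmd, Scx, Thbs4, Fmod, Comp, Chad, Cilp2, Dcn, Lum and Prg4. All 10 were among the 13602 named genes of the table, and all 10 were among the 11062 genes that passed the filter on low counts. The control group held 8 male mice labelled wild type (floxed), and the knockout group held 7 male mice with a skeletal-muscle-specific deletion of Cpt1b, the muscle form of the enzyme that passes long-chain fatty acids to carnitine for entry into mitochondria. Titles and protocol give chow feeding for 12 to 14 weeks in both groups, whereas the diet field of every sample gives a 45% high-fat diet, so the diet that both groups shared cannot be settled here. The Cre driver, the deleted exons and the age of the mice are not given in the sources used here. Each library came from the gastrocnemius of 1 mouse.

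The gastrocnemius is anchored by tendon and aponeurosis, whose cells deposit type I collagen fibrils. Scleraxis, encoded by Scx, is a transcription factor of tendon cells, and tenomodulin, encoded by Tnmd, is a membrane glycoprotein of more mature tendon cells that depends on it. Small leucine-rich proteoglycans such as decorin, lumican and fibromodulin bind collagen and set how fibrils grow. Thrombospondins such as Thbs4 and Comp bridge collagen and other matrix proteins. In a bulk muscle library these transcripts come from a minority of cells, so fewer tendon cells and less RNA per cell cannot be told apart.

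The libraries counted short sequence tags, 1 per transcript, so a level does not scale with transcript length. In the usual chemistry of this kit the tag starts at the CATG nearest the 3′ end. Tags predicted from GENCODE M21 transcripts (GRCm38) are shown for the 7 members on which the results turn, with the CATG in capitals, so that it is clear which stretch of each transcript was available to be counted.
Cilp2 (chr8:69880413-69880439, minus strand): CATGgtgcttggaatgccctccggact
Chad (chr11:94569033-94569059, plus strand): CATGctaccaggataccagtagcgctt
Comp (chr8:70381732-70381758, plus strand): CATGcgtggtggccgcctgggtgtctt
Tnmd (chrX:133865546-133865572, plus strand): CATGttctaataaacttctacatcatc
Scx (chr15:76459355-76459381, plus strand): CATGctggctctctacctgggccaagt
Thbs4 (chr13:92751640-92751666, minus strand): CATGgcttttcttttaccagcccaaat
Fmod (chr1:134048115-134048141, plus strand): CATGaatggcggccaacctaaccaata
The Comp tag lay in coding sequence and the tags of the other 9 members lay in the 3′ UTR. No other annotated gene had the same predicted tag as a member, and any 2 member tags differed at 12 or more of their 27 positions, so the members do not share tags with each other. The annotation places 3 members across a gene on the opposite strand: Chad lies inside Acsf2, Scx lies inside Bop1, and Prg4 overlaps the 3′ end of Tpr. Whether the authors' counting used strand is not given in the sources used here.

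Library totals ran from 8334436 to 16238258 tags in controls and from 9390065 to 19397255 in knockouts. Control replicate 7 and knockout replicate 4 had the highest total of their group. The same pair also had the highest scores on the leading principal component of all tested genes (51.2 and 76.2), which held 44.6% of the variance. Several of the member values that this pair moves are given with and without it below. Markers of fast fibres summed to between 86420 and 156100 CPM (tag counts scaled to a common library size with edgeR's TMM factors) in the 15 libraries, as a fast muscle would give. Cpt1b itself had 7.64 ± 3.17 CPM in controls and 3.79 ± 1.64 CPM in knockouts (SD, n = 8 and 7), a log2 difference of -1.03 with an adjusted p of 0.103 by edgeR's quasi-likelihood test. It passed with DESeq2 (0.0309) and, in edgeR, without control replicate 7 (0.0487), without both libraries (0.0432) or with the log2 total count as a covariate (0.0294). Its predicted tag lies in the 3′ UTR and is shared with 1 other annotated gene, and whether the deletion removes it is not known, so this level does not check the labels.

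The matrix genes Cilp2, Chad and Comp fell in knockout muscle, and no member rose. These 3 passed at an adjusted p of 0.05 in edgeR's quasi-likelihood test with Benjamini-Hochberg adjustment over all 11062 genes, of which 2.17% were called in either direction, 0.497% as lower and 1.67% as higher. Without adjustment, 5 members were lower and 0 higher at p under 0.05, beside 5.92% of all tested genes that were lower. Of the 10 members, 8 had a negative log2 difference, against 49.4% of all genes, and the median was -0.43 among members and 0.00 among all genes tested. DESeq2 called 4 members lower (1.09% of its genes), adding Tnmd, and limma voom called the 3 that edgeR called (0.479%), with no member called higher by either. No member had all its knockouts below all its controls, a separation seen in 0.226% of genes.

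**Figure D1:**
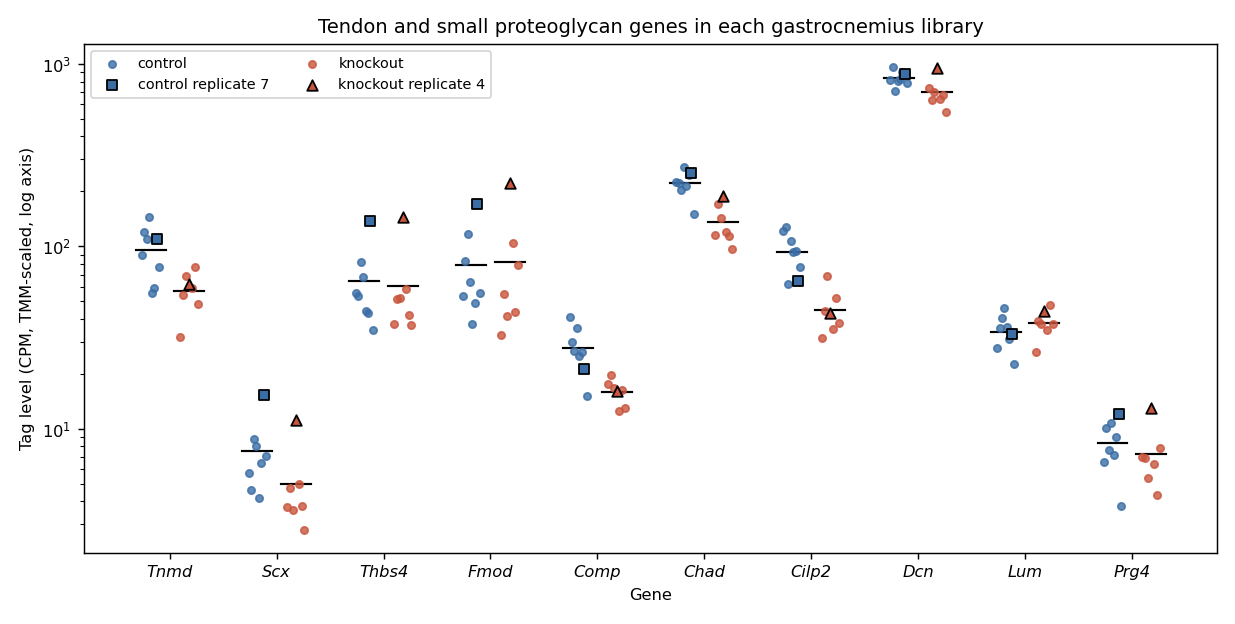
Level of each member in each library, in CPM on a log axis. Circles are libraries, black lines are group means, and the square and triangle mark control replicate 7 and knockout replicate 4. These lie at the top of their groups for Scx, Thbs4, Fmod and Prg4, but not for Comp or Cilp2. For Chad and Dcn only the triangle is at the top of its group.

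Cilp2 encodes a secreted matrix protein of the cartilage intermediate layer protein family. Its level ran from 62.5 CPM (replicate 3) through a median of 93.8 to 127 (replicate 2) in controls, and from 31.4 (replicate 1) through 43.4 to 68.9 (replicate 3) in knockouts. In all, 6 of 7 knockouts were below the lowest control, and only knockout replicate 3 reached into the control range. The means were 93.5 ± 24.6 and 44.7 ± 12.6 CPM (SD), a log2 difference of -1.06 ± 0.19 (SE) with an adjusted p of 0.0038 by edgeR. This was the largest difference among the members.

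Chondroadherin, encoded by Chad, is a leucine-rich repeat protein first known from cartilage that binds collagen and cells. Control libraries held 151 (replicate 8), 223 (median) and 272 CPM (replicate 4), and knockout libraries held 97.0 (replicate 7), 120.3 (median) and 189 CPM (replicate 4). Of the knockouts, 5 of 7 were below every control, and control replicate 8 was the only control inside the knockout range. The means were 223.0 ± 36.9 and 136 ± 33.3 CPM (SD), a log2 difference of -0.72 ± 0.16 (SE) with an adjusted p of 0.0181 by edgeR. Acsf2, an acyl-CoA synthetase gene that runs across Chad on the other strand, moved the opposite way, from 1.40 ± 0.446 to 7.35 ± 2.75 CPM (log2 difference 2.38, edgeR adjusted p 9.43e-06). Whether tags of either gene were counted for the other was not tested.

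Comp, or thrombospondin 5, forms pentamers that bind several collagen molecules at a time, and its gene lies 486 kb from Cilp2 on chromosome 8. Its lowest, median and highest levels were 15.03 (replicate 8), 26.4 and 41.1 CPM (replicate 1) in controls. In knockouts they were 12.6 (replicate 5), 16.3 and 19.6 CPM (replicate 2). Of the controls, 7 of 8 were above every knockout, and control replicate 8 was inside the knockout range. The means were 27.6 ± 8.11 and 15.96 ± 2.49 CPM (SD), a log2 difference of -0.79 ± 0.18 (SE), with an adjusted p of 0.0241 by edgeR. The call was lost without control replicate 1 (edgeR adjusted p 0.05006), control replicate 4 (0.0563), knockout replicate 5 (0.0581) or knockout replicate 7 (0.0624).

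**Figure D2:**
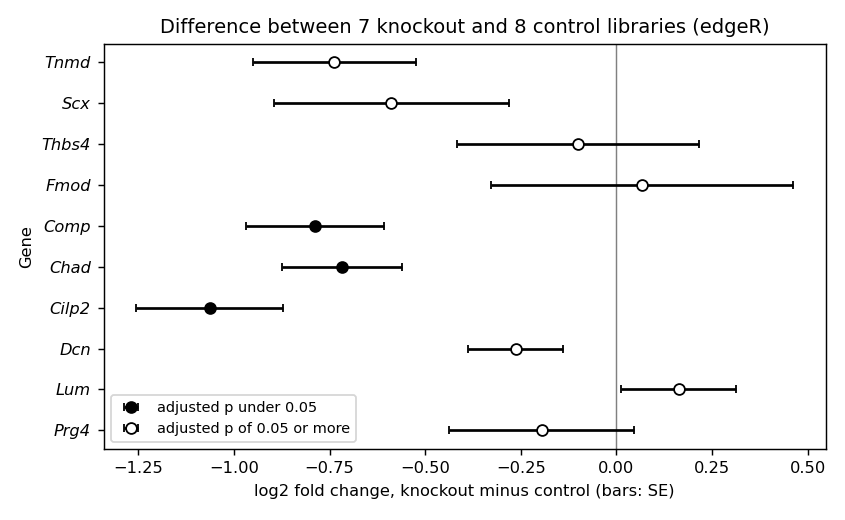
Difference between 7 knockout and 8 control libraries for each member, as edgeR log2 fold change with its SE. Filled points are the 3 genes with an adjusted p under 0.05 (Cilp2 -1.06, Comp -0.79, Chad -0.72), and open points are the other 7.

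The tendon cell genes Tnmd and Scx did not pass the test. Tnmd ran from 55.8 (replicate 5) through 99.5 to 144 CPM (replicate 4) in controls and from 31.9 (replicate 1) through 59.3 to 76.6 CPM (replicate 6) in knockouts. The levels of 6 of 8 controls were above every knockout, with controls 5 and 6 in the knockout range and control 8 (76.66 CPM) just above knockout replicate 6 (76.59 CPM). The log2 difference was -0.74 ± 0.21 (SE), about that of Chad, with an adjusted p of 0.0918 by edgeR, 0.112 by limma voom and 0.0289 by DESeq2, so the call depends on the tool. Scx, the transcription factor gene, averaged 7.52 ± 3.53 and 4.97 ± 2.82 CPM (SD) in the 2 groups, and had its extremes at 4.16 (replicate 5) and 15.3 (replicate 7) around a median of 6.76 CPM in controls. The knockouts ran from 2.80 (replicate 7) through 3.79 to 11.2 CPM (replicate 4). In both groups 1 library stood well above the others, with the next at 8.81 and 4.996 CPM, and the groups overlapped (log2 difference -0.59 ± 0.31, edgeR adjusted p 0.419). The log2 difference was -0.94 (adjusted p 0.0793) without knockout replicate 4, -0.35 (0.432) without control replicate 7 and -0.71 (0.0517) without both, so its size depends on these libraries. Bop1, the ribosome biogenesis gene around Scx, had 4.68 ± 1.74 and 3.58 ± 1.59 CPM (edgeR adjusted p 0.596), a level close to that of Scx, and whether tags of either were counted for the other was not tested.

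Thbs4 and Fmod showed no difference that passed the test, and both had the same libraries at the top. Thbs4, a thrombospondin of tendon and of the muscle-tendon junction, ran from 34.9 (replicate 8) through 54.5 to 137 CPM (replicate 7) in controls and from 37.1 (replicate 7) through 51.2 to 144 CPM (replicate 4) in knockouts. Fibromodulin, encoded by Fmod, ran from 37.4 (replicate 5) through 59.7 to 171 CPM (replicate 7) in controls and from 32.8 (replicate 1) through 54.5 to 221 CPM (replicate 4) in knockouts. For both genes the groups overlapped over nearly their whole range. The log2 differences were -0.10 ± 0.32 (adjusted p 0.893) for Thbs4 and 0.07 ± 0.39 (adjusted p 0.947) for Fmod by edgeR. These signs rest on single libraries: without control replicate 7 the value for Thbs4 was 0.15, and without knockout replicate 4 the value for Fmod was -0.41. Without both libraries the values were -0.24 and -0.16, neither passing.

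Decorin, the proteoglycan encoded by Dcn, was the member with the most tags, and it is also made by fibroblasts within muscle. It ran from 707 (replicate 3) through 823 to 960.0 CPM (replicate 2) in controls and from 545 (replicate 7) through 677 to 947 CPM (replicate 4) in knockouts. The levels of 5 knockouts were below every control, while knockout replicate 4 lay near the top control. The log2 difference was -0.26 ± 0.12 (SE) with an unadjusted p of 0.0477 and an adjusted p of 0.363 by edgeR. Without both control replicate 7 and knockout replicate 4 it was -0.35 (edgeR adjusted p 0.0905). Lumican, encoded by Lum, lies 47.0 kb from Dcn on chromosome 10 and binds collagen beside fibromodulin. Its lowest, median and highest levels were 22.7 (replicate 8), 34.4 and 45.7 CPM (replicate 4) in controls and 26.3 (replicate 1), 37.7 and 47.5 CPM (replicate 6) in knockouts, which overlapped almost fully (log2 difference 0.16 ± 0.15, edgeR adjusted p 0.638). Leaving out control replicate 8 gave 0.096, leaving out knockout replicate 6 gave 0.10, and leaving out the 2 deepest libraries together gave 0.11. Dcn tags per Lum tag had a median of 26.8 in controls and 18.3 in knockouts, with ranges of 17.6 to 34.6 and 14.2 to 27.9 that overlapped.

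Prg4 encodes lubricin, the lubricating proteoglycan of joint and tendon surfaces. It ran from 3.76 (replicate 8) through 8.33 to 12.1 CPM (replicate 7) in controls and from 4.34 (replicate 6) through 6.88 to 13.1 CPM (replicate 4) in knockouts. The groups overlapped, with a log2 difference of -0.20 ± 0.24 (SE) and an adjusted p of 0.724 by edgeR. It was -0.41 without knockout replicate 4, -0.095 without control replicate 7 and -0.32 without both, none passing. Its predicted tag lies within the 3′ end of Tpr, a nuclear pore gene with 196 ± 27.5 CPM in controls and 235 ± 25.5 CPM in knockouts (edgeR adjusted p 0.335). That is far above the level of Prg4, and whether any of its tags were counted as Prg4 was not tested.

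Whether the tendon genes moved together across libraries was asked of log2 CPM with each group centred on its own mean, so that the genotype did not enter. Over the 45 pairs of members, Pearson r had a median of 0.34 and ran from -0.40 (Scx and Cilp2) to 0.88 (Scx and Thbs4). It was positive in 39 pairs (86.7%), against 49.97% of the 61178391 pairs of all tested genes, whose median r was 0.00. The median size of r regardless of sign was 0.35 for members and 0.34 for all gene pairs. The members thus differed from all pairs in sign and hardly in size, and no p is given for these summaries.

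A total of 3 pairs passed in the permutation test of r (100000 permutations of libraries within group, two-sided, adjusted over 45 pairs), and all 3 lay among Scx, Thbs4 and Fmod. Scx and Thbs4 had r = 0.88 and rho = 0.70 over 15 libraries, with permutation p of 0.0007 and 0.0072, or 0.0158 and 0.127 adjusted. Thbs4 and Fmod had r = 0.85 and rho = 0.65 (permutation p 0.00044 and 0.0138, adjusted 0.0158 and 0.127). Scx and Fmod had r = 0.78 and rho = 0.66 (permutation p 0.0022 and 0.0112, adjusted 0.0326 and 0.127). None of the 3 passed by rank. Without the 2 libraries farthest from the median, knockout replicate 4 and control replicate 7, r was 0.55, 0.57 and 0.39. Each r was lower without that pair of libraries, and that of Scx and Fmod was the lowest. Within controls r was 0.79, 0.87 and 0.80, and within knockouts 0.96, 0.83 and 0.77. The values within controls still include control replicate 7, and those within knockouts still include knockout replicate 4. Values within a group without that library were not taken. Of all gene pairs, 2.89% had r at or above the lowest of the 3. That cut was taken from the member pairs themselves, so their own share is not compared with it.

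**Figure D3:**
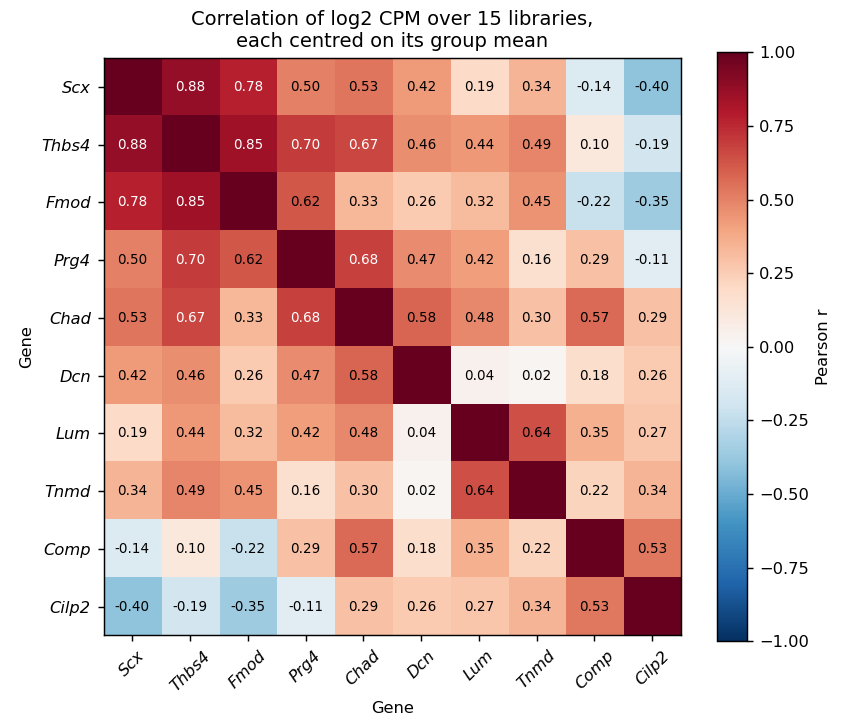
Pearson r between members over 15 libraries, centred on group means, from -1 (blue) to 1 (red). Scx, Thbs4 and Fmod share r of 0.78 to 0.88, whereas Comp and Cilp2 have r of -0.40 to 0.10 with these 3 (-0.38 to 0.48 without control replicate 7 and knockout replicate 4).

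**Figure D4:**
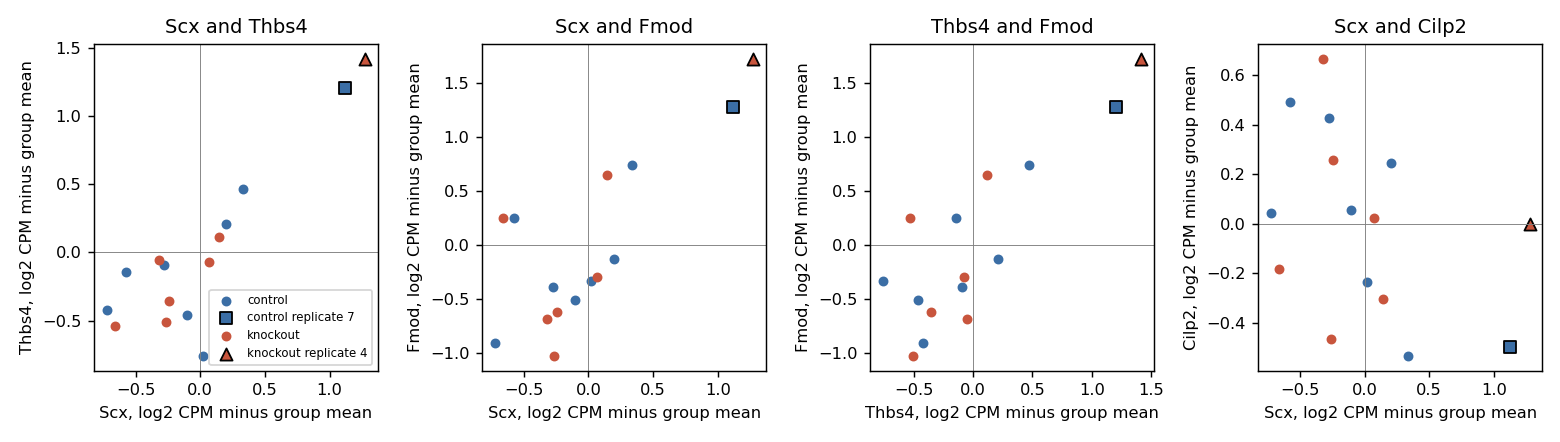
Pairs of members by library, 4 in all, in log2 CPM minus the group mean. In the first 3 panels control replicate 7 (square) and knockout replicate 4 (triangle) lie apart at upper right; in the panel of Scx and Cilp2 (r = -0.40) they lie at the right but not at the top.

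Of the genes that fell, Comp and Cilp2 had low or negative r with that trio. Comp had r of -0.14, 0.10 and -0.22 with Scx, Thbs4 and Fmod, and Cilp2 had r of -0.40, -0.19 and -0.35. Without control replicate 7 and knockout replicate 4 these were -0.0056, 0.48 and -0.19 for Comp and -0.38, 0.055 and -0.31 for Cilp2, so the low value of Comp with Thbs4 rests on that pair of libraries. The same step took Chad and Fmod from 0.33 to -0.14. Comp had positive values with Chad (r = 0.57, rho = 0.44, permutation p 0.0212 and 0.0946, adjusted 0.106 and 0.355) and with Cilp2 (r = 0.53, rho = 0.58, permutation p 0.05003 and 0.0343, adjusted 0.188 and 0.174), none of which passed. Without control replicate 7 and knockout replicate 4 the r of Comp was 0.75 with Chad and 0.48 with Cilp2. Chad, which also fell, had r of 0.53 with Scx, 0.67 with Thbs4, 0.33 with Fmod and 0.68 with Prg4, the values with Thbs4 and Prg4 each at an adjusted permutation p of 0.0612. Without that pair of libraries the r of Chad with these 4 genes was 0.23, 0.53, -0.14 and 0.53. The neighbours Dcn and Lum had r = 0.04, and Tnmd had its highest value with Lum (r = 0.64, adjusted permutation p 0.0936). Tag ratios between members were also taken from raw counts, as a description only. Ratios of other gene pairs were not taken. How wide a range counting and differences between mice alone would give was not tested. Fmod tags per Tnmd tag ran from 0.443 to 1.56 in controls and from 0.568 to 3.56 in knockouts, a 3.53-fold and a 6.27-fold range within a group. The top value was in control replicate 7 and in knockout replicate 4, and without them the ranges were 2.42-fold and 3.11-fold. Thbs4 per Tnmd ran over 2.81-fold and 4.23-fold ranges with the same 2 libraries at the top, or 1.77-fold and 2.15-fold without them. Comp per Chad ran from 0.0846 to 0.183 in controls and from 0.0850 to 0.152 in knockouts, which is 2.16-fold and 1.78-fold, or 1.84-fold and 1.45-fold without them.

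**Figure D5:**
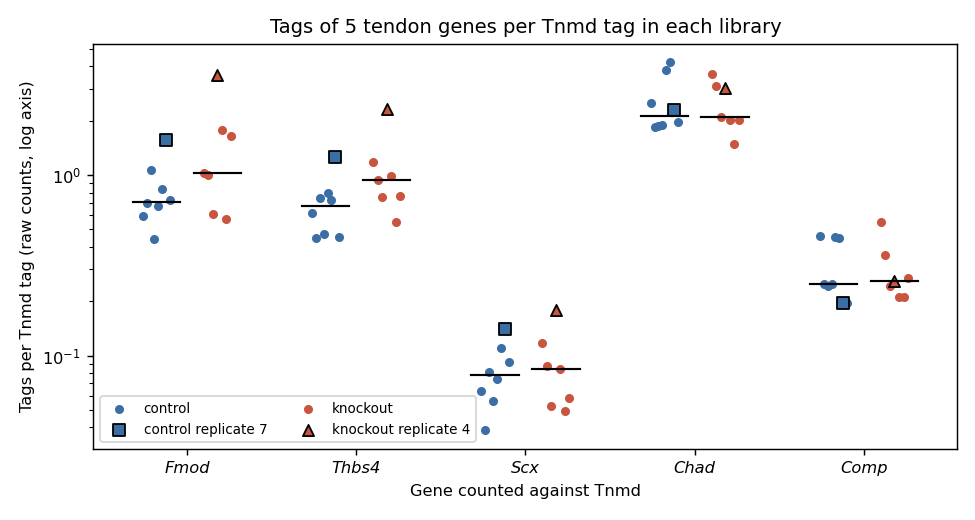
Tags of 5 members per Tnmd tag in each library, from raw counts on a log axis, with black lines at group medians. Fmod, Thbs4 and Scx per Tnmd are highest in control replicate 7 (square) and knockout replicate 4 (triangle) of their groups, at 1.56 and 3.56 for Fmod, while Chad and Comp per Tnmd are not.

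No relation of a member's level to library depth passed the test. With the log2 total count, r was 0.63 for Scx, 0.62 for Thbs4, 0.60 for Fmod and 0.59 for Prg4, each with an adjusted permutation p of 0.0702 over 10 members, and rho was 0.29, 0.28, 0.35 and 0.42 (adjusted p 0.413 each). Without the 2 libraries farthest in depth, knockout replicate 4 and control replicate 1, these r were 0.44, 0.50, 0.39 and 0.42. Comp and Cilp2 had r of -0.34 and -0.35. With the log2 total as a covariate, an alternative chosen after seeing the data, Cilp2 (adjusted p 0.0015), Chad (0.0039) and Comp (0.0109) kept their calls in edgeR and Tnmd passed (log2 difference -0.73, adjusted p 0.0487). Without control replicate 7 and knockout replicate 4 the count of members called also stayed at 3. The part of depth in the correlations was not tested.

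The knockout difference was also fitted at equal core tendon level, the mean centred log2 CPM of Tnmd, Scx, Thbs4, Fmod, Comp and Chad. That level ran from -0.25 to 0.86 in controls and from -0.71 to 0.59 in knockouts, highest in control replicate 7 and knockout replicate 4. The level includes Comp and Chad, which were called lower themselves, so part of the knockout difference is in it. Cilp2 stayed lower, by a log2 difference of -1.11 ± 0.22 (SE) with an adjusted p of 0.0027 by edgeR. That fit called 13.8% of all genes lower and 30.8% in either direction, against 0.497% and 2.17% in the main fit. With Tnmd alone as the level the value for Cilp2 was -0.86 (adjusted p 0.103). Without the 2 outlying libraries it was -0.98 (adjusted p 0.0829), so the call does not hold in every fit. Dcn (-0.17, adjusted p 0.345), Lum (0.34, adjusted p 0.118) and Prg4 (0.20, adjusted p 0.485) did not pass.

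The 10 genes outside the member list with the highest r with the mean z score of the 6 core genes over the 15 centred libraries were taken from 9926 candidates with a mean of 20 or more tags. They were Rod1 and Vps29 (r = 0.90 each), Prss23, Tpm3, Cfl1, Actr2 and Mfap4 (0.89 each), and Fbn1, Ndufs4 and Arf4 (0.87 each). Among the candidates, 62 had r of at least 0.8. Mfap4 and Fbn1 encode microfibril proteins of the matrix. Tpm3, Cfl1 and Actr2 encode actin-binding proteins, Vps29 and Arf4 proteins of membrane traffic, and Ndufs4 a subunit of respiratory complex I. Without control replicate 7 and knockout replicate 4 their r was 0.72 to 0.85. None of the 10 was called between the groups.

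E-boxes, CANNTG, are the sequence that scleraxis and related factors bind. They were searched in the 250 bases upstream of the start in the RefSeq promoter table (GRCm38.p6), which held 5 members. The sequences of Fmod and Thbs4, the 2 members with the highest r with Scx, are printed with the E-box in capitals. Those r passed the permutation test but not by rank, and were lower without control replicate 7 and knockout replicate 4.
Fmod (chr1:134037004-134037253, plus strand): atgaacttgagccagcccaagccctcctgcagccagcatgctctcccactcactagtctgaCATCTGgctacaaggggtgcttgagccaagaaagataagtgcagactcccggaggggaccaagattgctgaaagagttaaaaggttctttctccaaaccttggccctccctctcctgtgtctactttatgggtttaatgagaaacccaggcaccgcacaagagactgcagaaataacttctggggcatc
Thbs4 (chr13:92794819-92795068, minus strand): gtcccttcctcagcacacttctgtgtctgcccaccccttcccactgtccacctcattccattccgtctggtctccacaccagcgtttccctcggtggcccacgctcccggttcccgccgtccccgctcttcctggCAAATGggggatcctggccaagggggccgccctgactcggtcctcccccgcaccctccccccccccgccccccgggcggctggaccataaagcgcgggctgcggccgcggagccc
Fmod, Thbs4, Cilp2 and Chad each had 1 match, and Tnmd had none. Among all 27025 promoters, 66.0% had at least 1, so a match was common and is a description only. CANNTG reads the same on both strands.

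Other matrix and tendon genes were taken from 3 lists, and signalling genes from 1 more, all chosen with earlier results known. Of the 36 tested genes of the 3 matrix and tendon lists 0 were called by edgeR. At its unadjusted p under 0.05, 13 were lower and 0 higher, beside 5.92% of all tested genes that were lower. DESeq2 called 5 lower and limma voom called 0, beside 1.09% and 0.479% of all genes called lower by each. The median log2 difference of the 36 was -0.27 and 29 were negative. Among all tested genes the median was 0.00 and 49.4% were negative. Among 7 other small leucine-rich proteoglycans, Kera (keratocan) had the smallest p, at 57.9 ± 9.62 and 38.9 ± 11.5 CPM (log2 difference -0.57, edgeR adjusted p 0.102), and DESeq2 called it (adjusted p 0.0373). Among 12 tendon collagens, 10 were negative and 5 were lower without adjustment. Col6a1, a chain of the beaded-filament collagen, went from 154 ± 27.6 to 103 ± 27.1 CPM (log2 difference -0.58, edgeR adjusted p 0.0772), and DESeq2 called it along with Col1a1 and Col11a1. The summed collagens ran from 2020 to 3891 CPM in controls and from 1040 to 3053 CPM in knockouts. Col1a1 gave the most tags to that sum (mean 1670 CPM in controls and 815 CPM in knockouts). Control replicate 7 had a sum of 2024 CPM, close to the lowest control. Knockout replicate 4 had 1900.0 CPM, against a knockout median of 1579. The sum was thus not highest where Scx, Thbs4 and Fmod were. Taken gene by gene over the centred libraries, the median r with the 12 collagens was 0.40 for Scx, 0.49 for Thbs4 and 0.25 for Fmod. Of the 12 collagens, 4, 3 and 5 had a negative r with these genes. For Tnmd, Chad, Dcn and Lum the median r was 0.40, 0.46, 0.38 and 0.36, each with 0 collagens negative. For Comp, Cilp2 and Prg4 it was 0.10, 0.34 and 0.25, with 2, 1 and 4 negative. Of 17 other tendon genes Angptl7, a secreted angiopoietin-like protein, had the smallest p (log2 difference -0.47, edgeR adjusted p 0.067), and DESeq2 called it. Of 15 genes of TGF-beta signalling, which acts on tendon cells, 0 were called lower by edgeR, DESeq2 or limma voom and 3 were lower unadjusted. Tgfb3 had the smallest p (log2 difference -0.38, edgeR adjusted p 0.167).

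Marker lists of other cell types were read in the same libraries. Over all tested genes, edgeR called 0.497% lower. At its unadjusted p under 0.05, the share lower was 5.92%, and the share in either direction was 13.6%. Of 13 cartilage and bone markers 10 were not in the table, Acan and Col2a1 among them, and the sum of the other 3 stayed between 7.77 and 22.1 CPM. Among them Col9a1 had a log2 difference of -0.84 (edgeR adjusted p 0.168). A single gene was called lower in each of the fibroblast (Gsn, 1 of 11), adipocyte (Lep, 1 of 8) and fast-fibre lists (Tnnt3, 1 of 7). Gsn, a gene of actin severing, went from 218 ± 38.4 to 149.6 ± 16.8 CPM (log2 difference -0.54, edgeR adjusted p 0.0351). Lep had a log2 difference of -1.83 (adjusted p 0.0296) and Tnnt3, fast troponin T, one of -0.65 (adjusted p 0.0063) by edgeR. Negative log2 differences numbered 7 of 11, 4 of 8 and 7 of 7 in the fibroblast, adipocyte and fast-fibre lists, beside 49.4% of all genes. The calls of Gsn and Lep were lost in most fits with 1 library left out. Nothing was called by edgeR in the synovial lining (5 tested, 2 lower unadjusted), muscle-tendon junction (6 tested, 2 lower), slow-fibre (6 tested, 3 higher), Schwann (6 tested, 1 lower), endothelial (7 tested, 0 unadjusted), macrophage (6 tested, 1 lower) and erythroid lists (3 tested, 0 unadjusted). DESeq2 called Cd55 and Htra4 of the synovial list lower and no gene of the other 6. The lowest p of these lists belonged to Cd55, Tigd4, Tnni1, Cnp, Cdh5, Csf1r and Hba-a1 in that order of lists, with log2 differences of -0.35, -0.45, 0.72, -0.37, -0.23, -0.52 and -0.39. The tested genes with a negative log2 difference numbered 5, 5, 0, 4, 2, 5 and 3 in the same order. The summed fibroblast markers were 1138 CPM in control replicate 7 and 1234 in knockout replicate 4, within 1138 to 1676 in controls and 1024 to 1430 in knockouts, and so were not high where Scx, Thbs4 and Fmod were. The summed Schwann markers were 146 CPM in each of the 2 libraries, the top of both groups. The muscle-tendon junction sum was the lowest of its group in both (309 and 279 CPM). The fast-fibre sum was 86420 CPM in control replicate 7, the lowest control, against a control median of 146600, and 92070 in knockout replicate 4, against a knockout median of 117500. The slow-fibre sum was lowest in control replicate 7 (999 CPM) and the adipocyte sum was highest in knockout replicate 4 (1679 CPM, next 1281). The erythroid sum was highest in control replicate 7 (91.0 CPM), with the next control at 45.6 CPM and the highest knockout at 56.2 CPM. The macrophage sum of knockout replicate 4 was the highest among knockouts (77.5 CPM, next knockout 74.2) but below the highest control (98.9 CPM). The part of these markers in the results was not tested.

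The sum of all 10 members was 1229 to 1694 CPM in controls and 906 to 1141 CPM in 6 of 7 knockouts. The remaining library, knockout replicate 4, had 1691 CPM and was inside the control range. Without Dcn, the largest contributor, the sum was 443 to 814 CPM in controls, 304 to 444 CPM in the same 6 knockouts and 744 CPM in knockout replicate 4, so that the 6 touched the lowest control. No test is given for sums over the members.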

How the data were processed

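Tag libraries (SOLiD SAGE, from 500 ng RNA per mouse, per the labels' protocols) were deposited by the authors as raw counts per gene. The submitters' processing notes name mm10, GRCm38.p1 and DESeq2, and the aligner, counting rules, strand and annotation are not given in the sources used here. A normalized table was not used here. From the counts, 360 lines that named no gene were dropped. edgeR 4.0.16 (R 4.3.3) was run with TMM scaling, filterByExpr (minimum count 10) and a robust quasi-likelihood test, with Benjamini-Hochberg adjustment over 11062 genes at 0.05. DESeq2 1.42.0 and limma 3.58.1 (voom) were alternatives, beside other scalings, no filter, a replicate block and leaving out each library. Correlations used log2 CPM with a prior count of 2. p-values of pairs came from 100000 permutations. Tested on simulated data of 10952 genes for this comparison, the fit recovered 74.5% of 98 genes with a log2 change of 1 and 100% of 96 genes with a log2 change of 2. It also made 12 false calls. The simulated counts were drawn independently and held no outlying library. Depth was 8334436 to 19397255 tags per library.

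The members and lists were chosen with earlier results of these data known. All 10 members were named. From each list up to 3 called genes were named, or the gene with the smallest p where none was called, together with the 10 genes most like the core tendon level and Cpt1b. Col1a1, Col11a1, Htra4, Acsf2, Bop1 and Tpr were named after their values were seen. The result of 1 listed gene is not reported here. Replicate numbers did not pair the samples, and the check is given with the other alternatives.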

Additional observations from a re-analysis of the deposited data

Results flagged for a closer look

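Scx in knockout replicate 4, at 11.15 CPM, lay far above the next knockout at 4.996 CPM. Thbs4 in the same library, at 144.2 CPM, lay far above the next at 58.3 CPM. Both gaps passed Dixon's criterion for a single distant value within a group, applied to log2 CPM, and 20 groups (10 members in 2 groups) were examined, in which chance marks about 1 in 20. On the CPM scale itself 6 values passed, all in this library (Scx, Thbs4, Fmod at 221 CPM and Prg4 at 13.1 CPM) or in control replicate 7 (Scx at 15.3 and Thbs4 at 137 CPM), so the number depends on the scale. Knockout replicate 4 also had the highest total count of all 15.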

How the results depend on the processing

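Of 230 alternative log2 differences of members, 216 kept their direction and side of the threshold. Cilp2 and Chad stayed called in all of them. Comp lost its call without control replicates 1 or 4 or knockout replicates 5 or 7, and Tnmd gained one with DESeq2 and with the library total as a covariate. Members called numbered 2 to 3 with 1 library left out. The value for Fmod turned to -0.070 with limma voom, -0.15 with the replicate block, -0.16 without control replicate 7 and knockout replicate 4, -0.078 with the library total as a covariate, and to -0.41, -0.04 and -0.0090 without knockout replicate 4 or control replicates 5 or 6. With 1 library left out it ran from -0.41 to 0.33. That for Thbs4 turned to 0.15 without control replicate 7 and ran from -0.48 to 0.15. Hba-a1 turned to 0.016 without control replicate 7 and 0.13 without both libraries, and ran from -0.59 to 0.016 with 1 left out. Prg4 at equal core tendon level turned to -0.014 with Tnmd alone, -0.20 with Fmod alone, -0.18 with the replicate block and -0.015 without both libraries, and ran from 0.056 to 0.29 with 1 left out. Cilp2 at equal core level was -0.86 with Tnmd alone and -0.98 without both libraries, neither passing, and -1.22 to -1.03 with 1 library left out.

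Genes called in all, 240, became 455 with DESeq2, 117 with the replicate block, 403 without both libraries, 548 with the library total as a covariate and 161 to 465 with 1 library left out, highest without control replicate 7. Genes called lower, 55, became 145, 19, 148, 178 and 30 to 154 in the same order. The cause was not tested. The median r of member pairs, 0.34, was 0.56 with library totals alone as scaling, 0.13 in the paired form (replicate block) and 0.30 to 0.41 with 1 library left out. Same-numbered libraries had correlations of deviations between -0.45 and 0.31, with 3 of 7 over 0.1 and 1 knockout closest to its own number, so the numbers were not used as pairs. Depth limits Scx and Prg4, with means of 88.3 and 106 tags per library.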
